A study of Mus musculus with 16 samples.

Results

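The cytosolic ribosomal proteins were followed through every probe set whose only gene symbol in the platform annotation is that of a numbered protein of the large subunit (Rpl) or the small subunit (Rps), a stalk protein (Rplp), or a paralogue named after such a protein (for example Rpl22l1). A further 29 ribosomal symbols occur only on probe sets that carry several symbols and have no member. The rule used names and no measured value. It gave 103 of 45101 probe sets, which carry 48 gene symbols. The large subunit is represented by 26 symbols on 48 probe sets and the small subunit by 22 symbols on 55 probe sets. A probe set is a group of short oligonucleotides designed against the sequence of a transcript, and 23 of the 48 genes have several. A suffix _x_at marks probe sets in which some oligonucleotides can also match other sequences, _s_at those that match several transcripts, and _a_at those for alternative transcripts of a gene. Rps4l is a transcribed pseudogene in the RefSeq table, and Rpl3l, Rpl7l1, Rpl22l1, Rpl39l and Rps27l are expressed paralogues.

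All 16 arrays carried RNA of E14tg2a, a mouse embryonic stem cell line, and the same total RNA served for both groups. In the amplified group (n = 8) the RNA was diluted to 10 pg, close to what a single cell holds, and each array received cDNA from its own amplification by the PCR-based V1V3 method. In the nonamplified group (n = 8) 5 µg of undiluted RNA was labelled directly. The labels call the replicates technical, so each p-value below measures the spread between repeats of the procedure on this RNA and not between cultures. The question was how far amplifying so little RNA moves the measured level of each ribosomal protein mRNA.

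The small ribosomal subunit reads the codons of an mRNA and the large subunit joins the amino acids. Ribosomal protein mRNAs are short and abundant in dividing cells, among them embryonic stem cells, and they are made together. Many begin with a terminal oligopyrimidine tract, a C at the very start followed by an unbroken run of C and T, through which growth signalling by mTOR controls their translation. The mouse genome also holds many processed pseudogenes of these genes, so oligonucleotides for a ribosomal protein can match several near-identical sequences, and levels of single members are uncertain to that extent.

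The windows shown here show such letters in members with different results. Each holds 30 bases of the coding strand, 15 on either side of the start annotated by RefSeq on assembly GRCm38.p6, and capitals mark a run that opens with C and continues with at least 7 further letters that are C or T. The first 6 hold such a run and the last 3 do not.
Rps27: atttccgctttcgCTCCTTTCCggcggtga (chr3:90213634-90213663, minus strand)
Rplp2: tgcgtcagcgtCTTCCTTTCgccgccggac (chr7:141447636-141447665, plus strand)
Rps10: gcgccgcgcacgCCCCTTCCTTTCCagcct (chr17:27635230-27635259, minus strand)
Rps18: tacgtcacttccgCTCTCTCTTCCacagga (chr17:33955651-33955680, minus strand)
Rpl38: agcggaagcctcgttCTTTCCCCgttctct (chr11:114668565-114668594, plus strand)
Rpl35: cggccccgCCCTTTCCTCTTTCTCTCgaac (chr2:39005117-39005146, minus strand)
Rpl37: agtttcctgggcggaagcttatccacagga (chr15:5116598-5116627, plus strand)
Rps15: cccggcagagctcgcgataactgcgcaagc (chr10:80292416-80292445, plus strand)
Rpl41: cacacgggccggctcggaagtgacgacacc (chr10:128549154-128549183, minus strand)
Starts were found for 42 of the 48 genes. A run stood somewhere in the window of 19 of these 42 genes (45.2%), against 2914 of 27025 genes of the same table (10.8%). It covered the annotated start base in 12 of the 42 (28.6%), against 1025 of 27025 (3.79%), and in the others it lay wholly before or after it. Only the coding strand was searched. A window without a run says only that these letters are not in it. As deposited, of 46 tested probe sets of genes with a run in the window, 30 were higher and 10 lower after amplification (median log2 fold change 0.33), and of 38 of genes without one, 21 were higher and 8 lower (median 0.35). These are descriptions of the members and no test was made.

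Over all probe sets the nonamplified arrays had a median intensity of 51.7 ± 1.44 (SD, n = 8) and the amplified ones of 35.0 ± 1.07 (SD, n = 8), a difference that the scalings below treat in different ways. All 10 markers of embryonic stem cells were found, with the brightest probe set of each between 573 and 8422 without amplification and between 276 and 10475 after it. The brightest probe sets of 6 fibroblast feeder markers lay between 21.6 and 82.0 without amplification and 11.8 and 82.0 after it, and those of 5 extraembryonic markers between 16.2 and 76.0 and between 13.8 and 229.

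Ribosomal protein probe sets stood at the top of the intensity range before and after amplification. Without amplification, 68 to 70 of the 103 lay in the brightest 1% of an array, and after it 63 to 66 did. Their share of the summed intensity of an array was 5.00% ± 0.062 on nonamplified and 5.02% ± 0.066 on amplified arrays (SD, n = 8 each). These shares differed by less than the SD between arrays of a group.

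Of the 103 probe sets, 98 (46 genes) were bright enough to be tested. The tests used log2(intensity + 16) and probe sets whose mean log2 value was above the 40th percentile, an intensity of about 33.7. The other 5 were Rpl3l (1449398_at), the paralogue of Rpl3 known from skeletal muscle, and further probe sets of Rpl27a, Rps16, Rps3 and Rps6. Rpl3l measured 23.2 ± 5.05 without amplification and 11.4 ± 7.48 after it (SD over the 8 arrays of each group), which is within the dim part of the arrays.

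As deposited, 60 of the 98 were higher on amplified arrays in limma's test with Benjamini-Hochberg adjustment over all probe sets (61.2%, against 24.7% of all 27022 tested), and 21 were lower (21.4%, against 32.8%). Together 81 changed (82.7%, against 57.5%). The 8 amplified values all lay above the 8 nonamplified values for 56 members (57.1%, against 14.8% of all) and all below them for 13 (13.3%, against 18.8%). The median log2 fold change was 0.35 over the members and −0.17 over all probe sets. As deposited, 12 members were at least 2-fold higher and 11 at least 2-fold lower. The same count over all probe sets is not given here, so these numbers do not show whether the members stand out. The small subunit had 35 higher and 10 lower of 52 (median 0.41), and the large subunit 25 higher and 11 lower of 46 (median 0.31). By gene, 21 of 46 had all their tested probe sets higher, 6 had all lower, 8 had none that passed, and 8 had probe sets called in both directions.

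**Figure D1:**
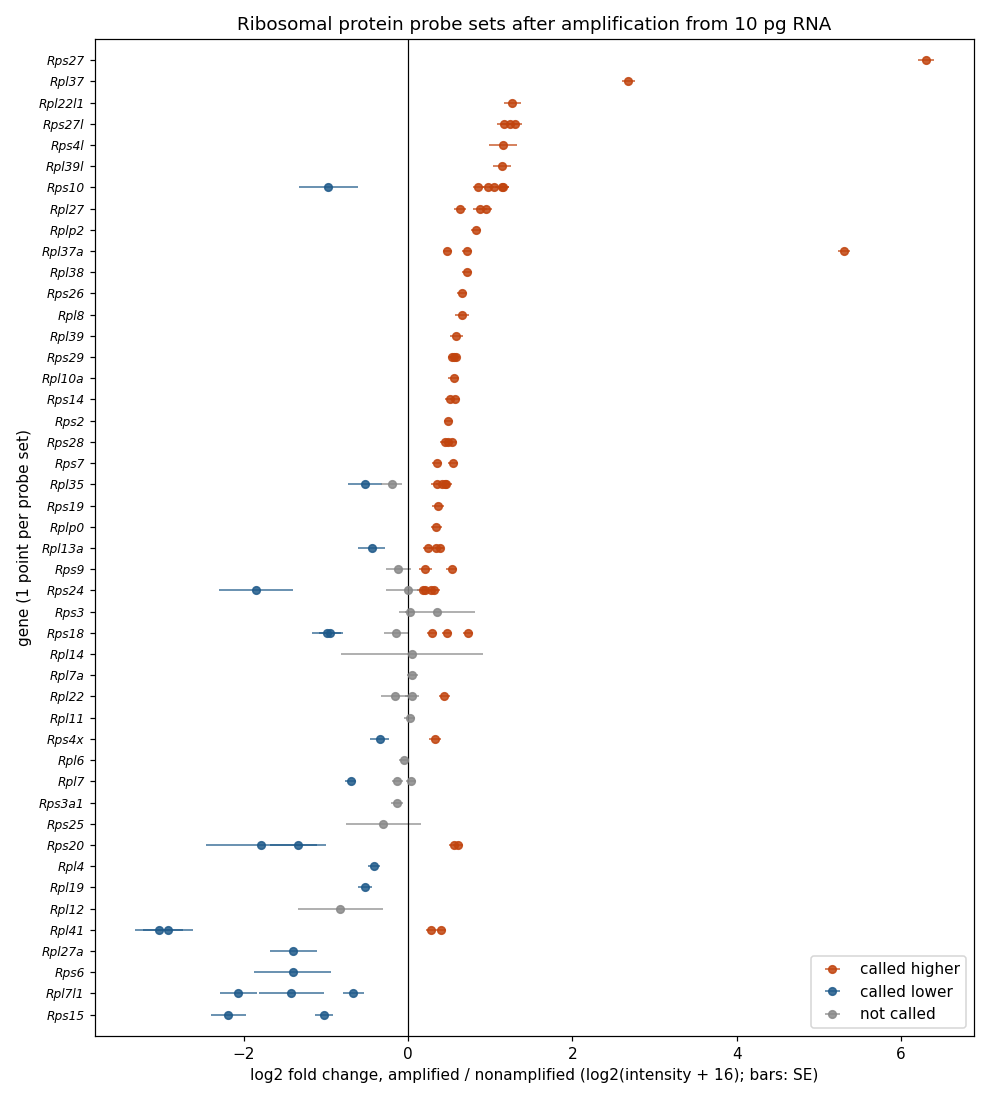
Log2 fold change of each of the 98 tested ribosomal protein probe sets (horizontal axis, amplified over nonamplified on log2(intensity + 16), bars are the SE) by gene (vertical axis, 46 genes ordered by their median); orange points were called higher, blue lower and grey not called. Most genes lie between 0 and 1, Rps27, Rpl37a and Rpl37 lie far to the right with 1 probe set each, and several genes have points on both sides of 0.

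How many were higher depended on how the arrays were set to a common scale. With each array centred on its median, 68 members were higher and 12 lower, and with arrays scaled on the brighter 50% of probe sets 66 were higher and 15 lower. Quantile normalization turned the balance, with 17 higher and 46 lower, and scaling on 18 probe sets of the spiked hybridization controls gave 18 higher and 34 lower. The median of all probe sets moved from −0.17 as deposited to −0.026, 0.24, 0.075 and −0.59 under quantile, median, brighter 50% and control scaling, and that of the members from 0.35 to −0.18, 0.76, 0.60 and −0.066. Median, brighter 50% and control scaling shift all log2 values of an array equally, so they leave the members' standing among all probe sets unchanged. Relative to all probe sets the members were thus higher as deposited and lower under quantile normalization. Of the members called, the share called higher was 74.1%, 27.0%, 85%, 81.5% and 34.6% in the order as deposited, quantile, median, brighter 50% and controls, against 43.0%, 50.9%, 63.2%, 55.6% and 22.5% of all. For 26 members the call itself changed direction between scalings. That count over all probe sets is not given here, so it does not show whether the members stand out. The calls that held under all 5 were 15 higher (15.3%, against 12.4% of all) and 12 lower (12.2%, against 22.2%), and the account below starts from these.

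**Figure D2:**
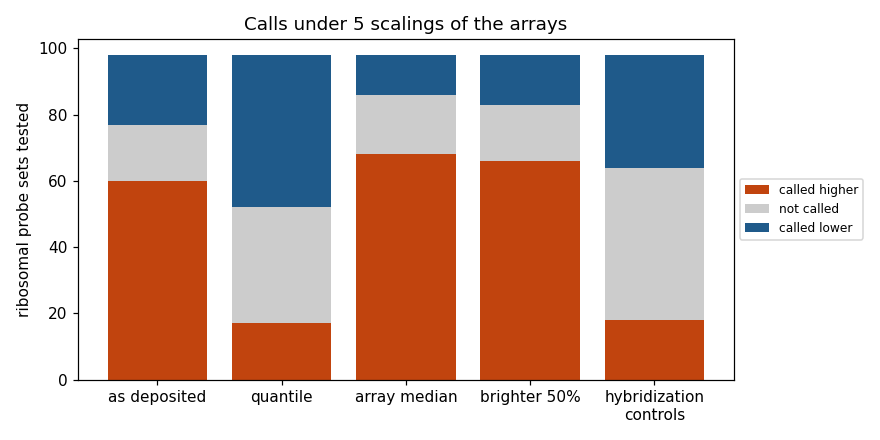
Number of the 98 tested ribosomal protein probe sets (vertical axis) called higher (orange), not called (grey) and called lower (blue) after amplification, under each of 5 scalings of the arrays (horizontal axis). The orange part runs from 17 under quantile normalization to 68 with arrays centred on the median.

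As deposited, the level without amplification went with the direction. Among 59 members with a nonamplified mean above 5000, 46 were higher and 5 lower (median 0.44), and of all 227 probe sets of that range 169 were higher and 23 lower (median 0.45). Among 13 members between 1000 and 5000, 11 were higher and 1 lower (median 0.94), against 728 higher and 474 lower of all 1590 (median 0.24). Among 17 between 100 and 1000, 2 were higher and 9 lower (median −0.82), against 1886 higher and 5331 lower of all 12511 (median −0.62). Of 9 members up to 100, 1 was higher and 6 were lower (median −0.53), against 3894 higher and 3038 lower of all 12694 (median 0.026). The filter for testing used the mean over both groups. Probe sets below about 33.7 without amplification thus entered this band only if they were higher after it. The 9 members had nonamplified means of 55.6 to 95.9 and did not enter in this way. The contrast in this band therefore does not show whether the members stand out. The median of the brightest members was thus near that of all probe sets as bright. The 59 members are among those 227, so this nearness is in part the members set against themselves. These intensities compare probe sets, not transcript amounts, since each probe set has its own affinity.

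**Figure D3:**
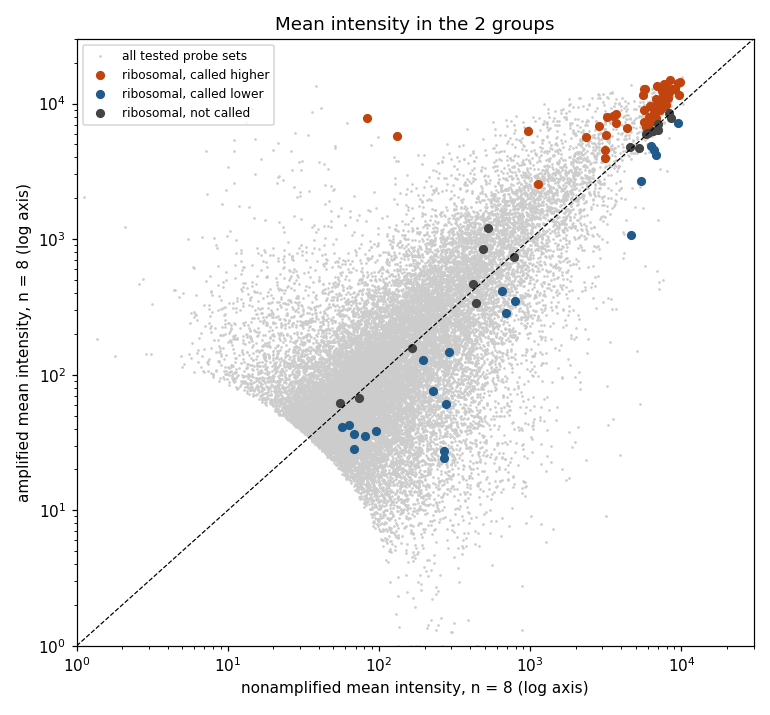
Mean intensity of each tested probe set on the 8 amplified arrays (vertical, log axis) against that on the 8 nonamplified arrays (horizontal, log axis); grey points are all 27022 tested probe sets and the dashed line is equality. Ribosomal protein probe sets (orange higher, blue lower, dark grey not called) crowd at the upper end, above the line as deposited (quantile and control scaling turn this balance), and Rps27 and a probe set of Rpl37a lie far above it at a nonamplified mean near 100.

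In the small subunit, Rps27 had the largest rise of the family. Rps27 is a zinc-finger protein of the small subunit, also called metallopanstimulin. Its only single-symbol probe set (1460699_at) had a lowest, median and highest intensity of 67.2, 85.4 and 99.9 on the 8 nonamplified arrays and of 6533, 8144 and 8347 on the 8 amplified arrays. Every amplified array was far above every nonamplified one, and the mean percentile among the probe sets of an array went from 63.3 to 99.4. The log2 fold change was 6.30 (limma adjusted p = 1.46e-17, SE 0.093), and the call held under all 5 scalings. On nonamplified arrays this probe set was dim beside the rest of the family, whose median intensity on an array was 5613 to 5957, and on amplified arrays it was close to their median of 6584 to 7939.

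Rps27l, the paralogue of Rps27 that is a target of p53, was higher too, by far less. Its 3 probe sets had log2 fold changes of 1.17, 1.30 and 1.23. On 1435429_x_at the lowest, median and highest values were 3007, 3168 and 3402 without amplification and 6749, 7429 and 10633 after it (limma adjusted p = 4.63e-09). No amplified value of the 3 probe sets fell within the nonamplified range, and all 3 were called higher under all 5 scalings.

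Rps10, a small-subunit protein near the mRNA entry side that is mutated in some forms of Diamond-Blackfan anaemia, was the member with the most probe sets higher under every scaling. Of its 6 probe sets, 5 were higher by 0.86 to 1.15 on the log2 scale as deposited and were called higher under all 5 scalings. On 1439374_x_at the lowest, median and highest values were 5317, 5650.5 and 5978 without amplification and 11102, 12712 and 14402 after it, with no overlap (log2 fold change 1.15, limma adjusted p = 1.99e-09, SE 0.079). The sixth, 1436384_at, was dim, at 68.0 ± 11.0 without amplification and 36.5 ± 32.9 after it (SD over the 8 arrays of each group). It was called lower as deposited (log2 fold change −0.97, limma adjusted p = 0.0293, SE 0.36), although its amplified values, from 1 to 82.5, overlapped the nonamplified range of 56.0 to 84.4. That call held on the hybridization controls and was lost under the other 3 scalings.

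Rps15, which lies in the head of the small subunit, went the other way. The probe set 1416089_at had a lowest, median and highest value of 4390, 4599 and 4958 without amplification and of 417, 1065 and 1515 after it. For 1416088_a_at these were 5125, 5404 and 5543 and 2054, 2685 and 3312. Both lost signal on every amplified array, with no overlap between groups and a call of lower under all 5 scalings. The log2 fold changes were −2.19 (limma adjusted p = 1.48e-07, SE 0.21) and −1.03 (limma adjusted p = 2.80e-07, SE 0.10). The loss was not equal: within an array the second probe set exceeded the first by 1.16 more after amplification than without it (SE 0.21, limma adjusted p = 0.000186).

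Rps18, a head protein of the small subunit, was split by the brightness of its 6 probe sets. The 3 bright ones were higher by 0.73, 0.47 and 0.29. On the brightest, 1455572_x_at, the lowest, median and highest values were 7726, 8057 and 8298 without amplification and 12809, 13339 and 13954 after it, and this one was higher under all 5 scalings. Of the 3 dim probe sets, all with nonamplified means under 100, 1450390_x_at (−0.99) and 1421838_at (−0.95) were lower under all 5 scalings and 1421837_at did not pass (−0.15).

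Rps20, Rps24 and Rps6 had probe sets that varied widely between amplified arrays. Rps20, a protein of the head, was higher by 0.56 and 0.61 on its bright probe sets. These calls were lost under quantile normalization (−0.033 and 0.058, limma adjusted p = 0.656 and 0.405) and on the hybridization controls (0.14 and 0.19). On a further probe set, 1450417_a_at, the 8 nonamplified arrays lay between 182 and 221, with a median of 195. The amplified arrays 1 to 8 gave 41.9, 13.0, 386, 1, 1, 1, 111 and 475. Arrays 4, 5 and 6 were at the lowest listed value, and arrays 3 and 8 were above every nonamplified array. The log2 fold change was −1.79 (limma adjusted p = 0.0338, SE 0.68). It did not pass with arrays centred on the median or scaled on the brighter 50% of probe sets, nor with a pseudocount of 64 (−0.97, limma adjusted p = 0.0624), nor without amplified replicate 2, 4, 5 or 6 or nonamplified replicate 3, 7 or 8. The dim Rps20 probe set 1421935_at measured 95.9 ± 7.62 without amplification and 38.7 ± 39.9 after it (SD over the 8 arrays of each group). It was lower under all 5 scalings (as deposited log2 fold change −1.34, limma adjusted p = 0.00272, SE 0.34), although the groups overlapped.

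Rps24, a small-subunit protein also mutated in Diamond-Blackfan anaemia, had 4 bright probe sets that were higher by 0.19 to 0.32 as deposited, and lower by 0.23 to 0.47 under quantile normalization. Its probe set 1455195_at measured 210.0, 229 and 246 at the lowest, median and highest without amplification and 1, 64.2 and 168 after it, and was lower under all 5 scalings (log2 fold change −1.85, limma adjusted p = 0.00212, SE 0.45). Rps6, the small-subunit protein phosphorylated by S6 kinase, measured 265, 289 and 311 without amplification and 8.82, 119 and 425 after it on 1416142_at (log2 fold change −1.41, limma adjusted p = 0.0164, SE 0.47). All amplified arrays of 1455195_at lay below every nonamplified one, while the groups of Rps6 overlapped and its call was lost with arrays centred on the median.

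Rps29 was among the steadiest members. It encodes a short zinc-finger protein, and its 3 probe sets had an SD over the 8 amplified arrays of 0.020, 0.024 and 0.033 on the log2 scale, close to the 0.017, 0.030 and 0.038 of the nonamplified arrays. On 1438859_x_at the lowest, median and highest values were 9266, 9823 and 10081 without amplification and 13829.9, 14519 and 14770.2 after it. The shift of 0.54 to 0.58 thus came with almost no added scatter. It was near 0 under quantile normalization, from −0.073 to 0.014.

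Other small-subunit members made a close group. Rps26, a protein at the mRNA exit, was higher by 0.66, Rps14, which helps build the platform of the subunit, by 0.51 and 0.57, and Rps28 by 0.45 to 0.54. Rps7, which binds MDM2 when ribosome assembly is disturbed, was higher by 0.55 and 0.35, and Rps19, the protein most often mutated in Diamond-Blackfan anaemia, by 0.36. Rps2, among the brightest members at 9044 ± 247 without amplification and 12719 ± 387 after it (SD over the 8 arrays of each group), was higher by 0.49. Under quantile normalization the log2 fold changes of these 10 probe sets ran from −0.21 to 0.061, so their direction as deposited was not shared by every scaling. Rps3 and Rps3a1, proteins of the mRNA entry region and the platform side, did not pass on their bright probe sets (0.023 and −0.14), and both were called lower under quantile normalization and higher with arrays centred on the median.

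In the large subunit, Rpl37a and Rpl37, zinc-finger proteins that bind 28S ribosomal RNA, had the largest rises. On the Rpl37a probe set 1416218_x_at the lowest, median and highest values were 111, 129 and 154 without amplification and 5516, 5794 and 6226 after it, and the log2 fold change was 5.30 (limma adjusted p = 1.14e-17, SE 0.074). The other Rpl37a probe sets, 1460543_x_at and 1416217_a_at, were already bright without amplification, at 7814 ± 154 and 7444 ± 169.6 (SD over 8 arrays). They were higher by 0.72 and 0.48 as deposited, and 1416217_a_at did not pass under quantile normalization (−0.057). Without amplification the 3 probe sets thus gave very different signals for the same gene in the same RNA, and after it all 3 were bright. The change of 1460543_x_at minus that of 1416218_x_at was −4.58 on the log2 scale (SE 0.10, limma adjusted p = 6.22e-15).

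Rpl37 (1438291_x_at) had a lowest, median and highest value of 813, 977 and 1118 without amplification and of 6009, 6266 and 6529.7 after it (log2 fold change 2.68, limma adjusted p = 2.70e-14, SE 0.075). It was the single member whose spread was smaller on amplified arrays by the ratio of variances, with an SD on the log2 scale of 0.051 against 0.14 (ratio 0.361, F test adjusted p = 0.0252). Rpl37, the rise of 1416218_x_at and that of Rps27 were called higher under all 5 scalings.

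The paralogues are given beside the genes they are named after, and the difference between the genes was not tested. Rpl22l1, which can replace Rpl22 in the ribosome and is regulated by it, had a lowest, median and highest value of 1934, 2353 and 2561 without amplification and of 4069.7, 5959 and 6629 after it, a log2 fold change of 1.27 (limma adjusted p = 1.05e-08, SE 0.10). Rpl22 itself gave 0.44, 0.044 and −0.15 on its 3 probe sets, of which only the first passed as deposited. That call was lost under quantile normalization (−0.12), where the other Rpl22 probe sets were lower (−0.73 and −0.71). Rpl22l1 was higher under all 5 scalings, and all its amplified values lay above its nonamplified ones.

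Rpl39l, a paralogue known from male germ cells, measured 1092, 1129 and 1167 at the lowest, median and highest without amplification and 1768, 2546 and 3352 after it (log2 fold change 1.14, limma adjusted p = 1.05e-07, SE 0.11), with every amplified array above every nonamplified one and a call of higher under all 5 scalings. Rpl39, a very small protein of the peptide exit tunnel, was higher by 0.59 as deposited and lower by 0.19 under quantile normalization. The pseudogene transcript Rps4l measured 3327, 3486 and 3727 without amplification and 4499.7, 9019.9 and 10469.5 after it (log2 fold change 1.15, limma adjusted p = 1.50e-05, SE 0.17). Its call was lost under quantile normalization (0.38, limma adjusted p = 0.0661). Rps4x, the X-linked gene of the same small-subunit protein, gave 0.32 on its bright probe set, which was lower under quantile normalization (−0.22), and −0.34 on a dim one, whose call was lost under quantile, median and brighter 50% scaling and with weights per group (limma adjusted p = 0.190).

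Rpl7l1, a Rpl7 paralogue that acts in ribosome assembly, was the paralogue that fell. On 1439780_at the lowest, median and highest values were 256, 277 and 293 without amplification and 27.3, 43.7 and 146 after it (log2 fold change −2.07, limma adjusted p = 6.01e-07, SE 0.23), without overlap and lower under all 5 scalings. On 1426386_at they were 745, 793 and 820.2 and 27.3, 364 and 571 (log2 fold change −1.42, limma adjusted p = 0.00594, SE 0.40), and without amplified array 3, the lowest of the 8, the log2 fold change was −1.02. The remaining one, 1452049_at, fell by 0.67 as deposited and did not pass with arrays centred on the median (−0.26). Rpl7 itself fell by 0.70 on 1426162_a_at, a call that held under all 5 scalings, while its other probe sets gave −0.13 and 0.037 and did not pass as deposited. Under quantile normalization these were lower (−0.79 and −0.65), and centred on the median they were higher (0.27 and 0.45). The difference between 1415979_x_at and 1426162_a_at was 0.57 (SE 0.077, limma adjusted p = 1.06e-05). Of the 6 paralogue genes, all but Rpl3l were tested, on 9 probe sets. Of these, 6 were higher (24.7% of all probe sets were) and 3 lower (32.8% of all). None of the 9 overlapped between groups (14.8% of all were higher and 18.8% lower without overlap).

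Rpl41, which encodes the shortest ribosomal protein, had the largest fall on one pair of its probe sets and a small rise on the other pair. On 1433530_at the lowest, median and highest values were 239, 267 and 296 without amplification and 1, 21.6 and 71.9 after it (log2 fold change −3.03, limma adjusted p = 1.11e-07, SE 0.29), and on 1454639_x_at the log2 fold change was −2.92 (limma adjusted p = 3.01e-07, SE 0.30). Both were lower under all 5 scalings, and on 1433530_at the highest amplified array was below the lowest nonamplified one. The bright probe sets 1455578_x_at and 1422623_x_at measured 7959.7 ± 235 and 6065 ± 164 without amplification (SD over 8 arrays) and were higher by 0.28 and 0.40. Quantile normalization made them lower, by 0.28 and 0.21. The change of 1455578_x_at exceeded that of 1433530_at by 3.32 (SE 0.29, limma adjusted p = 5.07e-08).

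The stalk proteins recruit the elongation factors to the large subunit. Rplp2, an acidic protein of the stalk, had a lowest, median and highest value of 8183, 8447 and 8586 without amplification and of 14603, 14906 and 15659 after it, with no overlap, and was higher under all 5 scalings (log2 fold change 0.83, limma adjusted p = 2.34e-09, SE 0.058). Rplp0, which anchors the acidic proteins to the ribosome, measured 7411, 7608 and 7880.1 without amplification and 8776, 9538 and 10687 after it. Its log2 fold change was 0.34 as deposited, −0.21 under quantile normalization and −0.074 on the hybridization controls, so its direction followed the scaling. Rplp1 has no probe set with a single symbol.

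Other large-subunit members divided into higher and lower. Rpl27 was higher by 0.63 to 0.94 on 3 probe sets, Rpl38, known for its part in translating Hox mRNAs in the embryo, by 0.72, Rpl8 by 0.65 and Rpl10a by 0.55. Under quantile normalization all but Rpl38 lost their call, with log2 fold changes from 0.012 to 0.14. On the hybridization controls Rpl38 (0.30), Rpl8 (0.23), Rpl10a (0.14) and 1416099_at of Rpl27 (0.21) lost theirs, while the other Rpl27 probe sets kept it. Rpl38 measured 7282, 7452 and 7754 at the lowest, median and highest without amplification and 12018, 12377 and 12447 after it, and its SD of 0.018 on the log2 scale over amplified arrays was below the 0.032 over nonamplified arrays. Rpl4, which lines the exit tunnel, was lower by 0.41 and Rpl19 by 0.53 as deposited, and neither passed with arrays centred on the median (−0.0041 and −0.12). Rpl11, which holds MDM2 in check when ribosome assembly fails, Rpl6 and Rpl7a gave 0.017, −0.046 and 0.048 and did not pass as deposited. They were lower under quantile normalization and higher with arrays centred on the median. A single probe set of Rpl27a, 1437729_at, fell from 688 ± 59.5 to 284 ± 134 (SD over the 8 arrays of each group) and was lower under all 5 scalings (log2 fold change −1.40, limma adjusted p = 0.000506, SE 0.29).

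Rpl13a, whose product also represses translation of inflammatory mRNAs after release from the ribosome, was measured by 4 probe sets. As deposited 3 were higher, by 0.25, 0.34 and 0.38, and 1417608_a_at was lower by 0.44 (limma adjusted p = 0.0298). Under quantile normalization all 4 were lower. The call of 1417608_a_at was lost without amplified replicate 4, 5 or 6, and with arrays centred on the median or scaled on the brighter 50% of probe sets. The amplified values of 1417608_a_at ran from 2800.2 to 8711, around nonamplified values of 5923 to 6476, so the groups overlapped. Rpl35, a protein at the exit of the peptide tunnel, had 4 probe sets higher by 0.35 to 0.46, 1416243_a_at that did not pass (−0.20) and the dim 1454833_at that was lower (−0.53). The last call held on the hybridization controls and was lost under the other 3 scalings, with values from −0.28 to −0.12. None of the 6 was called higher under quantile normalization, where the first 4 ran from −0.31 to −0.074.

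**Figure D4:**
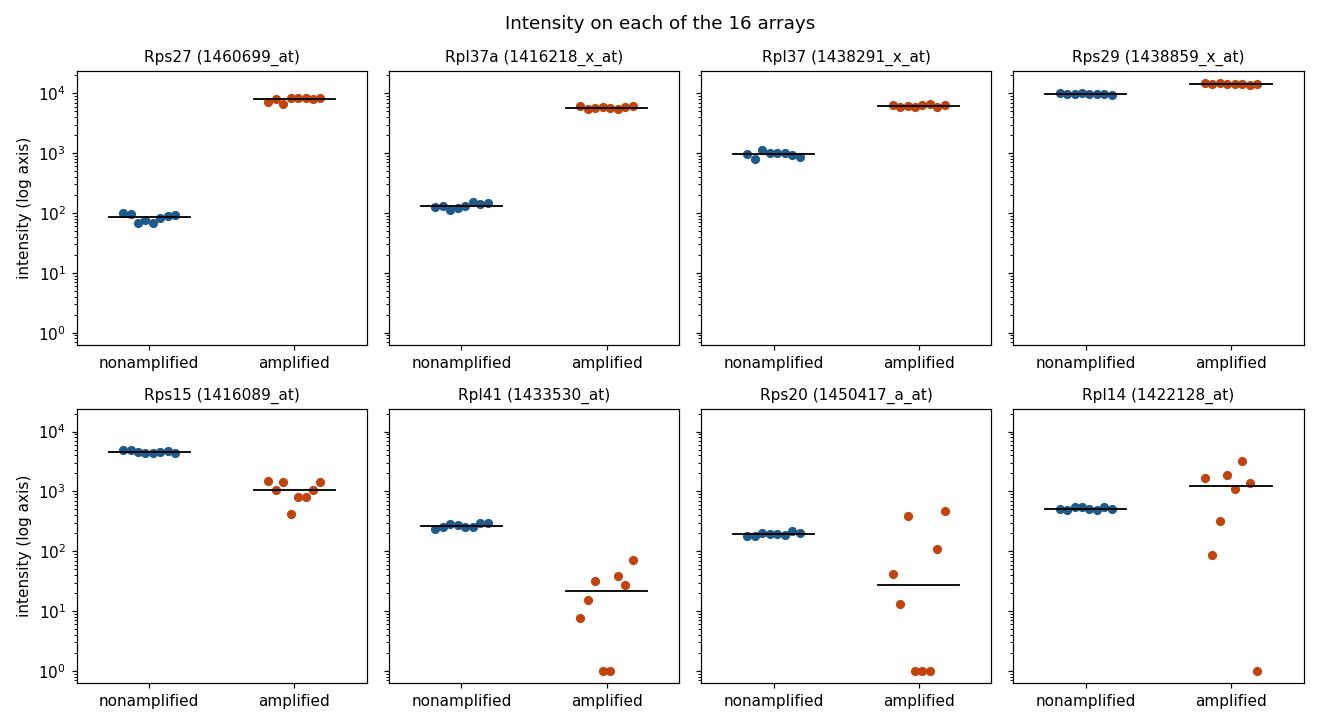
Intensity (vertical, log axis) on each of the 8 nonamplified (blue) and 8 amplified (orange) arrays for 8 probe sets, with black lines at the group medians. Rps27, Rpl37a and Rpl37 are higher on all amplified arrays, Rps29 is shifted with little scatter, Rps15 and Rpl41 are lower, and Rps20 and Rpl14 scatter down to the lowest listed value of 1.

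Within a gene, probe sets could disagree. Among 21 member genes with several tested probe sets, the 2 brightest of a gene changed unequally for 9 (42.9%, against 53.9% of 5605 genes; limma on the difference within each array, adjusted over these genes). Besides Rps15 and Rpl7, these were Rps4x (0.67), Rpl22 (0.40), Rps9 (−0.32), Rpl27 (−0.31), Rps18 (0.26), Rpl37a (0.24) and Rps7 (0.20), each as the log2 difference in change (limma adjusted p up to 0.0415). Since both probe sets sit on the same array, a shift of a whole array cancels in this comparison. Setting the brightest against the dimmest probe set of a gene gave larger differences for some genes, as for Rps20 (1.91), Rps10 (1.83) and Rps18 (1.68), beside Rpl37a and Rpl41 above. For Rps29, Rps14, Rps28 and Rps27l no difference between the 2 brightest passed.

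The kind of probe set went with the direction. Of 40 tested members with the suffix _x_at, 35 were higher and 3 lower (median 0.49), whereas of 27 with the plain suffix _at, 6 were higher and 13 lower (median −0.53). Over all tested probe sets, 717 of 1767 with _x_at were higher and 342 lower (median 0.28), and 4720 of 20152 with _at were higher and 6743 lower (median −0.19). Members with _a_at had 17 higher and 5 lower of 28 (median 0.36), against 856 higher and 1297 lower of 3514 (median −0.25). Without _x_at and _s_at probe sets, 23 of 55 members were higher and the median was 0.023. All these counts are as deposited. Of the members tested, 31 of 40 with _x_at and 3 of 27 with _at had a nonamplified mean above 5000, and the part of brightness in this difference was not tested.

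Scatter between amplifications was small for most of the bright members and larger for the dimmer ones. By the test on absolute deviations, 32 of 98 members had a larger spread on amplified arrays (32.7%, against 52.8% of all) and 0 a smaller one (against 0.418%) in limma with adjustment, or 0 at an unadjusted p under 0.05. By the F test of variances 55 had a larger spread (56.1%, against 64.3%) and 1 a smaller one. The SD was larger on amplified arrays for 89 of the 103, and the median ratio of SDs was 2.93 over the tested members and 4.29 over all probe sets. For members above 5000 without amplification the median SD on amplified arrays was 0.081 on the log2 scale. For all probe sets of that range, members included, it was 0.083. Between 1000 and 5000 it was 0.21 for members, against 0.38 for all. Between 100 and 1000 it was 0.87, against 0.84, and up to 100 it was 0.52, against 0.37.

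Rpl14, a large-subunit protein, had the largest spread of all members. Its amplified arrays 1 to 8 gave 1669, 85.4, 321, 1877, 1099, 3194, 1399.8 and 1 on 1422128_at, against 490.4 to 559 without amplification. Array 8 was at the lowest listed value, while 5 arrays were above every nonamplified one. The SD on the log2 scale was 2.58 against 0.079, and no difference in level passed (log2 fold change 0.051, limma adjusted p = 0.965). The nearest amplified SD was that of 1450417_a_at of Rps20 (2.03). Rpl12 (1.54), Rps6 (1.39), 1455600_at of Rps3 (1.38), Rps25 (1.37), 1455195_at of Rps24 (1.34) and 1426386_at of Rpl7l1 (1.19) followed. Each of these had a nonamplified mean between 100 and 1000. Between 3 and 8 of the 103 probe sets were in the lowest 25% of an amplified array, against 3 to 5 on nonamplified arrays.

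**Figure D5:**
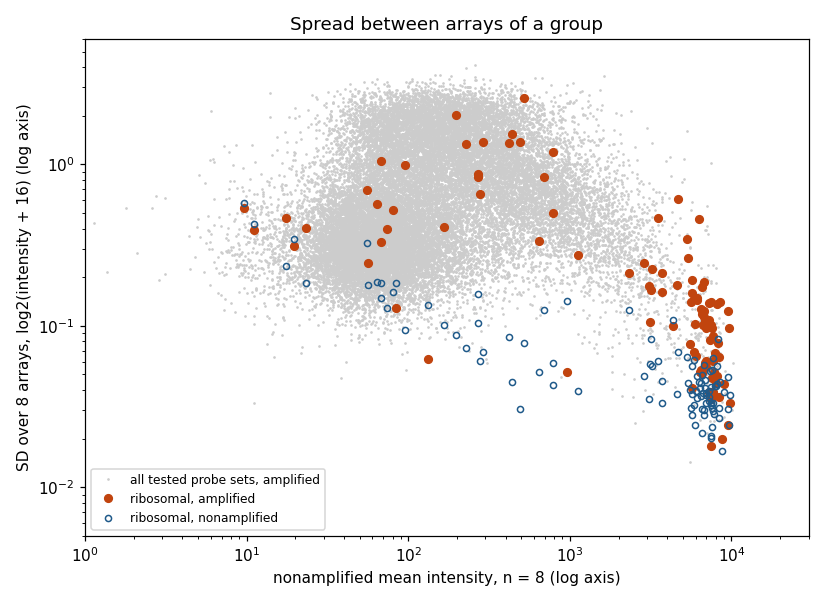
SD over the 8 arrays of a group, of log2(intensity + 16) (vertical, log axis), against the mean nonamplified intensity (horizontal, log axis); filled orange points are ribosomal protein probe sets on amplified arrays, open blue circles the same on nonamplified arrays, and grey points all tested probe sets on amplified arrays. Above an intensity of 5000 the orange points have a median of 0.081, and between 100 and 1000 of 0.87.

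A list of 21 ribosome-associated and other genes, chosen for an oligopyrimidine start, was set beside the ribosomal proteins, and 18 were found. Not all of these genes belong to the translation machinery. As deposited, 11 of their 42 tested probe sets were higher (24.7% of all probe sets were) and 18 lower (32.8% of all). Their median log2 fold change was −0.19, near the −0.17 over all probe sets. Rpsa, the small-subunit protein also known as the laminin receptor, had a mean of 7616 ± 301 without amplification and 11563 ± 971 after it (SD over the 8 arrays of each group, log2 fold change 0.60), a call lost under quantile normalization and control scaling. Eef1a1, the elongation factor that brings aminoacyl-tRNA, did not pass as deposited (−0.045) and was called lower under quantile and control scaling and higher under median and brighter 50% scaling. Tpt1 was higher (0.63) except under quantile normalization and control scaling, where it did not pass. The largest changes in the list were falls of Hnrnpa1 on 1455740_at (−4.42) and of Gas5, a host of small nucleolar RNAs, on 1424843_a_at (−3.83), both lower under all 5 scalings. Further probe sets of these genes disagreed as deposited. For Hnrnpa1, 1455305_x_at was lower (−1.15) and 1436549_a_at did not pass (0.27). For Gas5, 1419291_x_at was higher (0.73), 1436222_at lower (−0.54) and 1449410_a_at did not pass (−0.13).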

How the data were processed

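Per the labels' protocols, total RNA was column-purified and the Affymetrix one-cycle assay gave biotinylated cRNA, starting from the PCR product or from undiluted RNA. The authors deposited linear intensities, 1 for each probe set on each array and none under 1; what software summarised and scaled them is not given in the sources used here. Values were used as deposited.

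Symbols came from the platform annotation (1 symbol for 34945 probe sets, several for 932, none here for 9160); 64 control probe sets were left out. log2(intensity + 16) was fitted by limma 3.58.1 (lmFit, eBayes; R 4.3.3), with 2-sided tests and no covariate, over 27022 probe sets above the 40th percentile of the mean log2 value, with Benjamini-Hochberg adjustment at 0.05; the pseudocount makes fold changes of dim probe sets too small. The number of arrays limits the precision. Spread was compared by limma on absolute deviations from the group mean and by an F test of variances, and probe sets of a gene by limma on their difference within each array. Each step was tested on simulated data. Named probe sets were those brightest, most raised, most lowered, steadiest or most variable, the paralogues with their parent genes, the stalk proteins and the genes whose probe sets differed most; others were named to complete a gene or a group, after their values were seen. Alternatives were pseudocounts, filters, scalings, probe set types, weights, a replicate block and leaving out arrays; control scaling and the F test were added after the data were seen. The members and lists were chosen with earlier results of these data known. Equal replicate numbers did not pair arrays (correlations of deviations −0.0078 to 0.018 over 8 pairs). Batches were not tested, since scan dates and slides were not analysed here. Python 3.11.15 with matplotlib 3.10.9 made the figures.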

Additional observations from a re-analysis of the deposited data

Results flagged for a closer look

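In 82 groups of 8 arrays, formed by the named probe sets, 5 had an array set apart from the others by a gap large against the group's range; chance alone does this in about 1 of 20 groups. Rpl7l1 (1426386_at) was low on amplified array 3, at 27.28, while the other 7 arrays lay between 265.1 and 570.6. Rpl22 (1416603_at) was high on amplified array 1, at 6262, with the others between 4223 and 4910. Rpl13a (1455485_x_at) was high on amplified array 8, at 13290, with the others between 10550 and 11610. On nonamplified arrays, Rpl22l1 was low on array 2, at 1934 against 2262 to 2561, and Rps2 was high on array 1, at 9565 against 8675 to 9086. No array was set apart in more than 1 of these.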

How the results depend on the processing

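The scaling of the arrays moved many results. Under quantile normalization 17 members were higher, 46 lower and the median was −0.18, and Rps29 1415833_x_at (−0.073), Rps4x 1416276_a_at (−0.22), Rpl22 1416603_at (−0.73), Rplp0 1419441_at (−0.21), Rps4x 1420303_x_at (0.061), Rpl39 1423032_at (−0.19), Rpl7 1426163_x_at (−0.65), Rps2 1431766_x_at (−0.11), Rpl22 1453118_s_at (−0.12) and Rpl13a 1455485_x_at (−0.31) reversed. On the hybridization controls 18 were higher, 34 lower and the median was −0.066, and Rps4x 1416276_a_at (−0.094), Rpl22 1416603_at (−0.37), Rplp0 1419441_at (−0.074), Rpl7 1426163_x_at (−0.38) and Rpl13a 1455485_x_at (−0.17) reversed. Centred on the array median, 12 were lower and the median was 0.76, and Rpl7 1415979_x_at (0.27) and Rps4x 1420303_x_at (0.065) reversed. Scaled on the brighter 50% the median was 0.60. Without _x_at and _s_at probe sets 23 were higher (median 0.023), with 1 probe set per gene 31 were higher and 6 lower of 46, and against a log2 difference of 1, 5 were higher and 4 lower. A spread larger on amplified arrays was called for 55 members by the F test. With a pseudocount of 64, Rpl7 1415979_x_at passed (limma adjusted p = 0.0289). Fewer probe sets were tested in the settings that leave some out; for the rest the cause was not tested.

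With the replicate number as a block, 57 members were higher, 20 lower, the median was 0.35, 6 genes had unequal probe sets and 21 members a larger spread; 0 named probe sets changed their call. Leaving out each array in turn gave 58 to 61 higher, 17 to 21 lower, a median of 0.34 to 0.37, 8 to 9 genes with unequal probe sets and 24 to 33 members with a larger spread; of the named probe sets, Rps20 1450417_a_at and Rpl13a 1417608_a_at lost their call. The signal over background limits the dim probe sets, whose values can reach the lowest listed value.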

Other observations

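A further 110 probe sets carry a ribosomal protein symbol together with other symbols, so none was named. They hold 44 ribosomal symbols, 29 of which have no member probe set. As deposited, of 104 tested, 81 were higher after amplification (24.7% of all probe sets were), 7 lower (32.8% of all) and 16 did not pass. Their median log2 fold change was 0.52, and other scalings were not examined for these probe sets.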
